A study of Mus musculus with 5 samples.

Results

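The cells described here are the 245 third-ventricle cells of the Foxj1 line, out of 1473 single cells in 5 samples. They are all cells whose name in the count table begins with Tanycytes. Fluorescence sorting placed them in 96-well plates, and every cell gave a separate full-length cDNA library (Smart-seq2). Their tissue was dissected around the third ventricle of 3-month-old FoxJ1CreERT2 R26TdT mice, a line for which 5 females and 5 males are given. In this line the Foxj1 promoter drives a Cre recombinase that can be induced, and the Cre switches on a red fluorescent reporter. The sorting gate and the way Cre was induced are not given in the labels, so all values hold for the sorted cells and not for the whole wall of the ventricle.

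They were set against 3 other samples of the same line, genotype and age. The 10 animals are counted for the line as a whole, so which of them gave cells to each region is not known. These were 240 lateral ventricle cells, 305 of 547 cells from around the midbrain aqueduct, and 114 spinal cord cells. The midbrain cells left out lay in clusters rich in Sspo or in astrocyte or precursor markers. A further midbrain sample, from 7 female Nkx2-2Cre R26TrapC mice, was labelled through another promoter and entered no comparison. Each region was 1 sample and no label ties a well to an animal, so no difference between regions could be tested and every comparison below is a description of these samples. The table's prefix names a cell type where the sample's label names a place, and the link between them rests on anatomy, since tanycytes line the third ventricle.

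Ependymal cells are glia that line the brain's ventricles and the central canal, and most carry tufts of motile cilia that stir the cerebrospinal fluid. Foxj1 switches on the genes of motile cilia, together with the RFX factors, which bind a sequence called the X-box. Tanycytes are elongated ependymal cells in the floor and lower walls of the third ventricle. They have few or no motile cilia, send a process into the hypothalamus, take up glucose and thyroid hormone, and are known by the homeobox factor Rax.

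The cells were deeply read. They held a median of 734669 reads (114750 to 3853111) and 5341 genes (2511 to 10979) each, against medians of 715589 reads and 5435.5 genes in the lateral ventricle. Medians were 696997 reads over all 547 midbrain cells, not the 305 alone, and 759184 reads in the spinal cord. Mitochondrial genes took 5.08% of third-ventricle reads, against 5.44% in the lateral ventricle, 4.83% in all 547 midbrain cells and 9.17% in the spinal cord. Levels are given in CPM, the share of a gene among all reads in genes scaled to a fixed total, from reads summed over all cells of a region.

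Some cells stood apart and are named before the results. Cell numbers fall into 3 blocks of 96, with 83, 85 and 77 cells, and the third block differed from the others. Of 4052 genes of at least 50 CPM read in 25% of cells, 214 (5.28%) differed at least 2-fold between blocks 1 and 3 and 352 (8.69%) between blocks 2 and 3, against 28 (0.691%) between blocks 1 and 2. The same count was 153 (3.78%) between the third and the lateral ventricle, 126 higher and 27 lower in the third. The 4052 genes were chosen by their third-ventricle values, so genes low there and high in the lateral ventricle are missing from this count. Block 3 had the most reads per cell (median 916540, against 626134 and 744333) and the fewest genes (4545, against 5170 and 6024). What the blocks stand for is not given in the labels. In addition, 2 cells carried more reads of neuron markers than of ependymal markers. They are described further below, and values they touch are given with and without them.

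Over the whole transcriptome the 245 cells read 16093 of the 16347 genes in the table, 9577 of them at 10 CPM or more and 90 at 1000 CPM or more. In the lateral ventricle 9417 genes reached 10 CPM, in the midbrain 9444 and in the spinal cord 9379. In the third ventricle, 104 genes were read in all 245 cells and 930 in at least 90% of cells, whereas 4226 were read in under 10%. The 10 highest genes took 9.93% of third-ventricle reads, against 10.7% in the lateral ventricle, 9.43% in the midbrain and 13.3% in the spinal cord. Across genes, log2(CPM + 1) of the third ventricle had a Pearson correlation of 0.96 with that of the lateral ventricle and of the midbrain, and of 0.90 with that of the spinal cord. Genes are not independent and these samples share a method, so these correlations only describe how alike the sums were.

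The most abundant messages per length were a mixture of ciliary, lipid-carrying and metal-binding genes. Dbi, which encodes the acyl-CoA and diazepam binding protein, led with 8946 CPM per kb in the third ventricle, against 9645 in the lateral ventricle, 7325 in the midbrain and 6611 in the spinal cord, all in CPM per kilobase of exon. Nnat, the imprinted gene neuronatin, followed with 7317 CPM per kb in the third ventricle, against 5083 in the lateral ventricle, 5828 in the midbrain and 6708 in the spinal cord. Apoe, the main lipid carrier of the brain, stood at 5559 CPM per kb in the third ventricle, against 6199 in the lateral ventricle, 2530.3 in the midbrain and 289 in the spinal cord. In single cells the quartiles of Apoe lay at 6899.7 and 17025 CPM. Its summed level was close to that of the lateral ventricle and far above that of the spinal cord.

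Among the next genes, Tmem212 stood at 4168, Mt3 at 3768, Dynlrb2 at 2579 and Mt1 at 2282 CPM per kb in the third ventricle. Mt3 and Mt1 encode metallothioneins, which bind zinc and copper, and Dynlrb2 a dynein light chain of cilia. Clu, the chaperone clusterin, stood at 2137 CPM per kb in the third ventricle, against 3714 in the lateral ventricle, 3029.6 in the midbrain and 3084 in the spinal cord. The remaining genes of the first 15 were the pseudogene Gm12222 (a sequence that can draw reads of its parent gene), Anxa5, Fam183b, Ccdc153, Pcp4l1, Tppp3 and Chchd10, between 1919 and 1466 CPM per kb. Anxa5, a phospholipid-binding annexin, stood at 1808 CPM per kb in the third ventricle, against 1337 in the lateral ventricle, 1091 in the midbrain and 894 in the spinal cord. Most of these genes were read in all 245 cells, and Tmem212 and Ccdc153 in 244 and 244.

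Genes of ciliated ependymal cells were read in nearly every cell and at levels close to those of the other regions. Foxj1 (chromosome 11, 116330704 to 116335399, GRCm38), the master regulator of motile cilia and the gene whose promoter labelled the cells, was read in 243 of 245 cells. It reached 459.6 CPM for the third ventricle, 491 for the lateral ventricle, 596 for the midbrain and 543 for the spinal cord. Its 95% counting interval in the third ventricle was 457 to 463 CPM and its blocks stood at 425, 618 and 349 CPM. The 4 regions thus lay close together, and the blocks of the third ventricle spanned more than the regions did. Since the line is built on this gene, its presence is in part fixed by the method.

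All 20 ciliated ependymal markers were read, all 20 reached 50 CPM in the third ventricle, and all 20 lay within 2-fold of the mean of the other regions. Over all 10812 genes that came to 10 CPM in at least 1 region, 91.4% lay within 2-fold of that mean, 4.13% were at least 2-fold higher and 4.43% at least 2-fold lower, and these shares are the background for every list counted this way. The list's median log2 ratio was 0.02, against -0.02 over all those genes. Ccdc153, a coiled-coil protein of ependymal cells, stood at 3636 CPM in third-ventricle cells, against 3823 CPM for the lateral ventricle, 3639 for the midbrain and 1986 for the spinal cord. Tmem212, a membrane protein of multiciliated cells, stood at 2984 CPM for the third ventricle, 3586 for the lateral ventricle, 3679 for the midbrain and 1768.3 for the spinal cord. Sntn, which encodes sentan, a protein of cilium tips, stood at 665 CPM in third-ventricle cells, against 667 CPM for the lateral ventricle, 522 for the midbrain and 71.3 for the spinal cord. The third ventricle was thus close to the lateral ventricle for Ccdc153 and Sntn and the lowest of the brain regions for Tmem212, and the spinal cord was lowest for all of them.

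Genes of the moving part of the cilium were all read. All 43 axonemal dynein, central pair, radial spoke and tektin genes in the table passed 10 CPM, 40 of them reached 50 CPM in the third ventricle, and all 43 lay within 2-fold of the mean of the other regions. Their median log2 ratio was -0.18: 12 genes lay above the mean of the other regions and the third ventricle was the lowest region for 19. Summed over the list, the cells held 15067 CPM, against 16138 in the lateral ventricle, 17960.2 in the midbrain and 14899 in the spinal cord. The 3 blocks of the third ventricle ran from 14374 to 15989.6 CPM, so that its highest block lay just below the sum of the lateral ventricle.

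Dnah6, a heavy chain of the inner dynein arm, stood at 479.6 CPM for the third ventricle, 511 for the lateral ventricle, 669 for the midbrain and 615 for the spinal cord. Dnah5, a heavy chain of the outer arm, stood at 178 CPM in third-ventricle cells, against 222 CPM for the lateral ventricle, 247 for the midbrain and 236 for the spinal cord. For both, third-ventricle cells had the lowest of the 4 values. Dnaic2, an intermediate chain of the outer arm, stood at 479.97 CPM for the third ventricle, 372 for the lateral ventricle, 475 for the midbrain and 446 for the spinal cord, and here the third ventricle had the highest value by a narrow margin. Hydin, a giant protein of the central pair, stood at 302 CPM in third-ventricle cells, against 363 CPM for the lateral ventricle, 431 for the midbrain and 380.0 for the spinal cord, with third-ventricle blocks of 321, 383 and 218 CPM. Rsph1, a radial spoke protein, stood at 1738 CPM for the third ventricle, 2301 for the lateral ventricle, 2148 for the midbrain and 1757 for the spinal cord. Spag6l, a central pair protein, stood at 690.1 CPM in third-ventricle cells, against 607 CPM for the lateral ventricle, 593 for the midbrain and 482 for the spinal cord, again highest in the third ventricle. Tekt2, a filament protein of the doublet microtubules, was the one member that left the 2-fold range against the lateral ventricle alone, at 70.8 CPM in the third and 30.1 CPM in the lateral ventricle.

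Regulators of multiple cilia were measured as well. Of 16 regulators in the table, 11 came to 10 CPM in at least 1 region and 10 of these lay within 2-fold of the mean of the other regions, a share close to the 91.4% of all genes. Rfx2, an X-box binding factor, stood at 213 CPM for the third ventricle, 203 for the lateral ventricle, 236 for the midbrain and 253 for the spinal cord, and Rfx3, its partner in cilium formation, at 116 CPM in third-ventricle cells, against 122 CPM for the lateral ventricle, 127 for the midbrain and 139 for the spinal cord. Myb, which acts early in making many basal bodies, stood at 92.6 CPM for the third ventricle, 135 for the lateral ventricle, 163 for the midbrain and 156 for the spinal cord. Trp73, a member of the p53 family needed for multiciliated cells, stood at 80.6 CPM in third-ventricle cells, against 82.4 CPM for the lateral ventricle, 98.0 for the midbrain and 58.3 for the spinal cord. The exception was Ccno, a cyclin of basal body amplification, with 6.22 CPM for the third ventricle, 12.5 for the lateral ventricle, 16.4 for the midbrain and 51.9 for the spinal cord and third-ventricle blocks of 14.2, 5.79 and 0.714 CPM. Gmnc, which starts the multiciliated fate, stayed under 10 CPM in all regions, at 1.22 CPM in the third ventricle against 2.69 CPM for the lateral ventricle, 5.15 for the midbrain and 5.85 for the spinal cord.

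The promoters of the cilium genes were searched for the sequence that RFX factors bind, and a few are printed here because the cells were labelled through Foxj1, which works with these factors. Promoters came from RefSeq on GRCm38.p6, from 250 bases before to 50 after a gene's start, and 36 of the 43 cilium genes had one. The X-box half-site GTTGCC was searched on both strands. It was found in 15 of the 36 (41.7%), against 14.1% of all 27025 genes with a promoter and 19.7% of the 3171 such genes of at least 50 CPM. A gene was counted if any of its promoters held the letters. A near-complete X-box is GTTNCC and GGNAAC with 2 open bases between them, and it contains the half-site where the N of its first arm is G. This longer motif was in 0 of the 36 and in 0.529% of all genes with a promoter. The forkhead motif GTAAACA, also searched on both strands, was in 2 of the 36 (5.56%) and in 4.05% of all. A match describes letters in this window and is neither a bound site nor a cause. Printed are the promoters of a ciliary marker and a tektin with a half-site, of Six3, which holds a near-complete X-box, and of Cuzd1, the gene with the largest fold in the region, in whose window these letters were not found. Capitals mark GTTGCC, or GGCAAC where the half-site lies on the other strand, and in Six3 the near-complete X-box.
Ccdc153 (chr9:44240427-44240726, plus strand): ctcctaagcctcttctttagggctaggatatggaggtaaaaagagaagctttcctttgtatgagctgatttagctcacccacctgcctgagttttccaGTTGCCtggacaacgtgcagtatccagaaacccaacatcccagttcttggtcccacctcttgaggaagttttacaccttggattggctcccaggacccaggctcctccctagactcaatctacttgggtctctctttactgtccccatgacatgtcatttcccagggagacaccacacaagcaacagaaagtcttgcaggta
Tekt4 (chr17:25471340-25471639, plus strand): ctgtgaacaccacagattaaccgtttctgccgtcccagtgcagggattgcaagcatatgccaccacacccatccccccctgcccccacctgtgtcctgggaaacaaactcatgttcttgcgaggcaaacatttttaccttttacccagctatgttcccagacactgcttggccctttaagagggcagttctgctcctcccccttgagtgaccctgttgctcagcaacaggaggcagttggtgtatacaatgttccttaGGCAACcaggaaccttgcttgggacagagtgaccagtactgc
Six3 (chr17:85620584-85620883, plus strand): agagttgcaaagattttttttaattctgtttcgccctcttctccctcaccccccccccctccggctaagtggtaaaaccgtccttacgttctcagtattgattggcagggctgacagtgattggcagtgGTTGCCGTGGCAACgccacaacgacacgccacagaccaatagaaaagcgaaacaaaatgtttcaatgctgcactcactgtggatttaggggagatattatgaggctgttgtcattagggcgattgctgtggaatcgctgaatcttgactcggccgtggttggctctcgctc
Cuzd1 (chr7:131322243-131322542, minus strand): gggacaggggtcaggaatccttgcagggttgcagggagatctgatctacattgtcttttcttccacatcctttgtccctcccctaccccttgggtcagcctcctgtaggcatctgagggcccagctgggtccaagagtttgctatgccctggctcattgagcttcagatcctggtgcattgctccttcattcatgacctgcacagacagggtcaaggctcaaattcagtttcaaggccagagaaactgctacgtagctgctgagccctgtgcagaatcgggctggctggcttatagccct
The half-site of Ccdc153 lies 152 to 147 bases before the start of the gene and that of Tekt4 lies 8 to 13 bases after it. Among the 39 genes higher in the third ventricle than in every other region, described below, 31 had a promoter. Of these, 4 (12.9%) held the half-site, which is close to the share of all genes with a promoter.

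Cell by cell, most cilium genes and few tanycyte markers were read. After each cell was thinned to 100000 reads, third-ventricle cells had reads of a median of 36 of 43 cilium genes (5 to 42, quartiles 32 and 38). The medians were 37 in the lateral ventricle, 35 in the midbrain and 30 in the spinal cord. Of 19 tanycyte markers the same cells had reads of a median of 3 (0 to 8), against 3 in the lateral ventricle, 3 in the midbrain and 2 in the spinal cord. No third-ventricle cell had a larger share of the tanycyte list than of the cilium list, with 0 of 245 at this depth, unthinned, at 20000 reads or with at least 3 reads asked for. A count of 0 of 245 allows a share of up to 1.22%, counting error only and for cells of 1 sample. The levels of the lists bear on this count, since 9 of the 19 tanycyte markers but all 43 cilium genes reached 10 CPM in some region. Without the 2 neuron-marker cells the lowest number of cilium genes was 18 rather than 5.

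**Figure D1:**
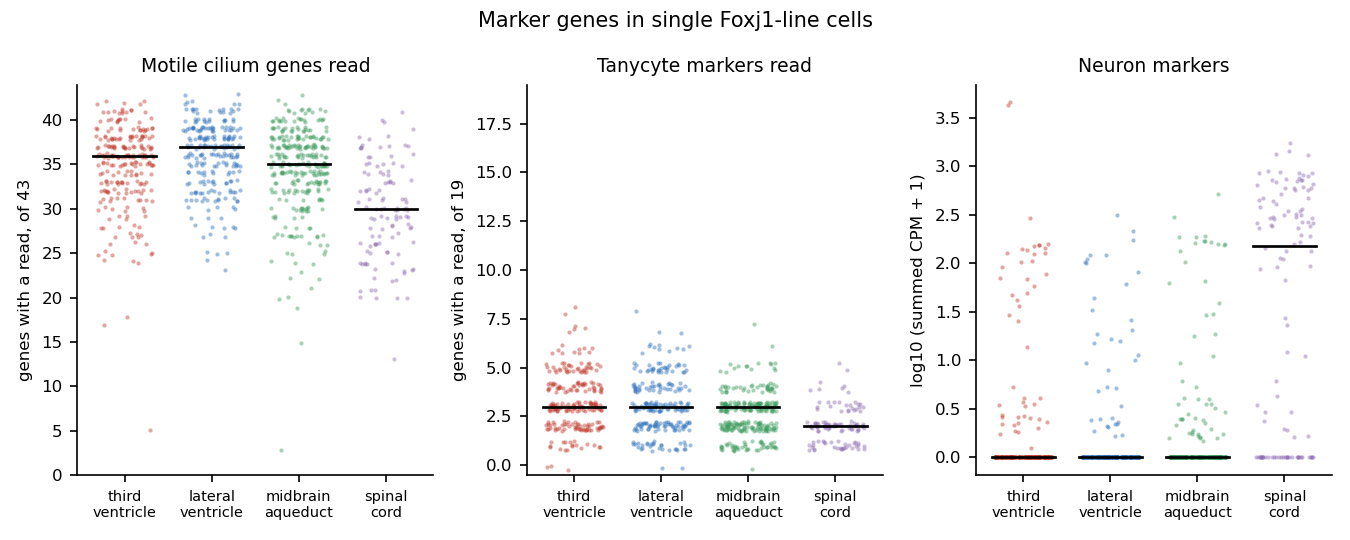
Each point is 1 cell, with the third ventricle left of the lateral ventricle, midbrain and spinal cord: the number of 43 motile cilium genes read and of 19 tanycyte markers read after thinning to 100000 reads, and log10 of the summed CPM of neuron markers plus 1. Third-ventricle cells lie around a median of 36 cilium genes and 3 tanycyte markers, as lateral ventricle cells do around 37 and 3, and 2 third-ventricle cells stand alone at the top of the neuron panel.

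The defining markers of tanycytes were at or near 0. Rax had 0 reads among 203810153, which at a floor of 3 reads limits it to 0.0147 CPM, counting error only. Dio2, the deiodinase that activates thyroid hormone in tanycytes, and Frzb, a secreted Wnt antagonist, also had 0 reads. Lhx2, a homeobox factor of tanycytes, stood at 0.167 CPM in third-ventricle cells, against 8.67 CPM for the lateral ventricle, 0.105 for the midbrain and 0.0423 for the spinal cord. Gpr50, an orphan receptor of tanycytes, stood at 6.39 CPM for the third ventricle, 2.80 for the lateral ventricle, 2.66 for the midbrain and 49.7 for the spinal cord, and was read in 17 third-ventricle cells. Col23a1, a membrane collagen, stood at 9.62 CPM in third-ventricle cells, against 6.16 CPM for the lateral ventricle, 5.55 for the midbrain and 27.7 for the spinal cord. For Gpr50 and Col23a1 the spinal cord was the highest region. Crym, Col25a1, Slc17a8 and Fgf10 were not in the table.

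Of the 19 tanycyte markers in the table, 9 came to 10 CPM in at least 1 region, 2 were at least 2-fold higher in the third ventricle than the mean of the others, 2 were at least 2-fold lower and 5 lay within 2-fold. Nes, an intermediate filament of progenitors and tanycytes, was one of the higher members, with 64.0 CPM for the third ventricle, 44.8 for the lateral ventricle, 26.3 for the midbrain and 0.581 for the spinal cord and third-ventricle blocks of 59.5, 77.8 and 55.4 CPM. The spinal cord held its lowest value, and against the lateral ventricle alone it did not reach 2-fold. The 2 lower members were Gpr50, given above, and Fgf18, a growth factor, at 2.90 CPM in third-ventricle cells, against 14.3 CPM for the lateral ventricle, 11.6 for the midbrain and 0 for the spinal cord.

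Of the 5 members within 2-fold, 4 others are given here beside Col23a1. Vim, an intermediate filament found in all ependymal cells, stood at 931 CPM for the third ventricle, 971 for the lateral ventricle, 1121 for the midbrain and 1528 for the spinal cord. Scn7a, a sodium-sensing channel, stood at 72.5 CPM in third-ventricle cells, against 76.6 CPM for the lateral ventricle, 66.3 for the midbrain and 6.29 for the spinal cord, and Tgfb2, a growth factor, at 71.9 CPM for the third ventricle, 51.9 for the lateral ventricle, 58.8 for the midbrain and 3.25 for the spinal cord. Cd59a, an inhibitor of complement, stood at 63.1 CPM in third-ventricle cells, against 40.3 CPM for the lateral ventricle, 26.7 for the midbrain and 95.8 for the spinal cord. The brain regions were thus close together in Scn7a and Tgfb2, and the spinal cord was lowest in both of these and highest in Vim and Cd59a. Under 10 CPM, Nr2e1, a nuclear receptor of neural stem cells and tanycytes, stood at 5.36 CPM for the third ventricle, 3.27 for the lateral ventricle, 0.0121 for the midbrain and 0 for the spinal cord, with third-ventricle blocks of 2.28, 13.997 and 0.229 CPM. Adm, the peptide adrenomedullin, stood at 5.48 CPM in third-ventricle cells, against 2.20003 CPM for the lateral ventricle, 0.577 for the midbrain and 1.2996 for the spinal cord. Penk, the enkephalin precursor, stood at 9.42 CPM, but at 1.16 CPM without the 2 neuron-marker cells, against 0.591 CPM for the lateral ventricle, 0.706 for the midbrain and 0 for the spinal cord.

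The count of 2 higher members moved with the setting. At a minimum of 1 CPM it was 5, with Nr2e1, Adm and Penk added, and against the lateral ventricle alone it was 1, Gpr50. Without block 3 it was 4, with Tgfb2 and Penk added. Leaving Vim out, the markers summed to a median of 270.5 CPM per cell in the third ventricle, against 207 in the lateral ventricle, 168 in the midbrain and 133 in the spinal cord, with quartiles that overlapped (153 and 448 CPM for the third, 88.0 and 411 CPM for the lateral ventricle).

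**Figure D2:**
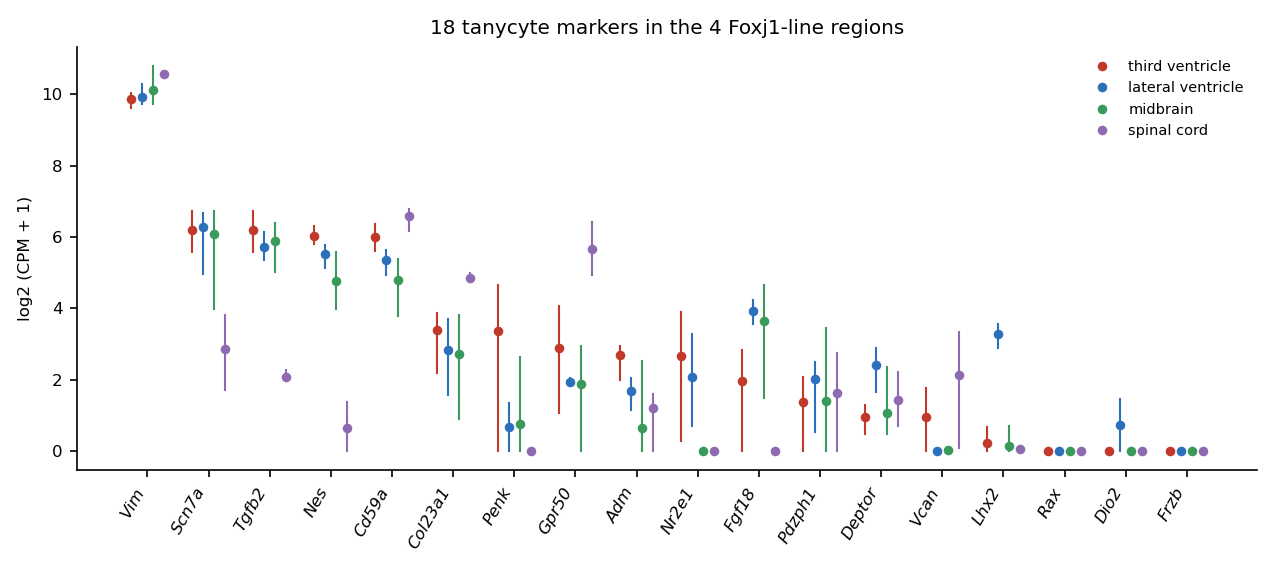
Levels of 18 of the 19 tanycyte markers in the table as log2(CPM + 1), with a point for each region's sum and a line from its lowest to its highest block of 96 cell numbers. Rax, Dio2 and Frzb lie at 0 in the third ventricle, and Vim lies at a like height in all 4 regions.

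Against all 3 other regions, 39 genes were higher in the third ventricle by the rule used. That is 0.798% of 4887 genes that could be compared. The rule asked for at least 50 CPM and a read in 25% of third-ventricle cells, at least 2-fold the highest other region, and blocks that did not overlap those of any other region. The strongest were Cuzd1, an epithelial protein with CUB and zona pellucida domains, and Gdpd2, a glycerophosphodiester phosphodiesterase. Cuzd1 was read in 124 of 245 cells and stood at 119, 109 and 159 CPM in the 3 blocks. Gdpd2 was read in 111 cells and stood at 84.1, 86.0 and 64.9 CPM. The highest block of any other region was 24.0 CPM for Cuzd1 and 15.8 CPM for Gdpd2, so the gap between regions was wider than the spread among blocks. With all 547 midbrain cells in place of the 305, the midbrain stood at 41.2 CPM of Cuzd1 and 18.7 CPM of Gdpd2. Its highest blocks were then 53.1 and 26.9 CPM, still below every third-ventricle block, and the folds over the highest other region were 3.18 and 4.14.

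Several of the 39 encode calcium-binding or membrane-binding proteins. S100a6, a small calcium-binding protein, stood at 615 CPM for the third ventricle, 187 for the lateral ventricle, 111 for the midbrain and 21.7 for the spinal cord, and its blocks at 593, 605 and 640.5 CPM. It was read in 96.7% of third-ventricle cells. Anxa8, an annexin, stood at 332 CPM in third-ventricle cells, against 94.0 CPM for the lateral ventricle, 69.4 for the midbrain and 6.53 for the spinal cord, with third-ventricle blocks of 368, 317 and 319 CPM. Capg, which caps actin filaments, stood at 321 CPM for the third ventricle, 96.5 for the lateral ventricle, 53.9 for the midbrain and 43.2 for the spinal cord. Calb1, the calcium buffer calbindin, stood at 701 CPM in third-ventricle cells, against 323 CPM for the lateral ventricle, 178 for the midbrain and 135 for the spinal cord, with blocks of 552, 752 and 766 CPM. S100a4, close kin of S100a6 on the same chromosome, stood at 52.8 CPM for the third ventricle, 17.0 for the lateral ventricle, 7.20 for the midbrain and 1.95 for the spinal cord. In each of these genes the lateral ventricle came second and the spinal cord last. That no third-ventricle block reached down to a block of another region was asked for by the rule that chose them.

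Others act outside the cell. Sparc (chromosome 11, 55394500 to 55423183), a collagen-binding protein of the matrix, had the most reads per length of the 39 (869 CPM per kb) and stood at 3292 CPM in third-ventricle cells, against 1144 CPM for the lateral ventricle, 1240.1 for the midbrain and 623 for the spinal cord. It was read in 99.6% of third-ventricle cells and its blocks were nearly equal, at 3188, 3365 and 3306 CPM. Itih5 and Itih3 encode heavy chains that bind hyaluronan. Itih5 stood at 136 CPM for the third ventricle, 36.01 for the lateral ventricle, 34.2 for the midbrain and 23.1 for the spinal cord, but at 68.3 CPM in all 547 midbrain cells, which put its fold at 1.99. Itih3 stood at 275 CPM in third-ventricle cells, against 32.9 CPM for the lateral ventricle, 133 for the midbrain and 0 for the spinal cord. Col6a5, a chain of collagen VI, stood at 79.2 CPM for the third ventricle, 24.8 for the lateral ventricle, 3.62 for the midbrain and 0 for the spinal cord. Fgf7, a growth factor for epithelia, stood at 76.4 CPM in third-ventricle cells, against 35.8 CPM for the lateral ventricle, 29.8 for the midbrain and 2.07 for the spinal cord, and Sema3b, a secreted guidance cue, at 55.3 CPM for the third ventricle, 19.9 for the lateral ventricle, 10.7 for the midbrain and 15.1 for the spinal cord.

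The next genes have roles at the membrane or in signalling. Lhfp, a tetraspan membrane protein, had third-ventricle blocks of 116, 175 and 113 CPM, against at most 40.6 CPM in a block of another region. With all 547 midbrain cells it no longer passed, since the midbrain then stood at 96.1 CPM and the fold was 1.40. Nbl1, a secreted antagonist of BMPs, had blocks of 88.1, 66.2 and 73.1 CPM, against at most 36.9 CPM. It too was lost with all midbrain cells, of which the highest block stood at 75.8 CPM. Dusp26, a phosphatase, stood at 120.1 CPM in third-ventricle cells, against 34.6 CPM for the lateral ventricle, 33.3 for the midbrain and 13.0 for the spinal cord. Rftn2, a lipid raft protein, stood at 52.8 CPM for the third ventricle, 15.3 for the lateral ventricle, 12.8 for the midbrain and 0.761 for the spinal cord, and Plscr4, a phospholipid scramblase, at 61.7 CPM in third-ventricle cells, against 18.01 CPM for the lateral ventricle, 8.75 for the midbrain and 7.42 for the spinal cord. These last 2 were low everywhere else, with no other region above 20 CPM.

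Further down the 39 genes were metabolic and neural genes. Aldoc, the brain form of the glycolytic enzyme aldolase, stood at 379 CPM for the third ventricle, 136 for the lateral ventricle, 54.6 for the midbrain and 172 for the spinal cord, with blocks of 397, 319 and 418 CPM. Prodh, which breaks down proline, stood at 165 CPM in third-ventricle cells, against 76.1 CPM for the lateral ventricle, 73.9 for the midbrain and 37.1 for the spinal cord, and Maoa, which breaks down monoamines, at 61.1 CPM for the third ventricle, 25.7 for the lateral ventricle, 27.6 for the midbrain and 25.1 for the spinal cord. Npy, the neuropeptide Y precursor, stood at 149 CPM in third-ventricle cells, against 65.9 CPM for the lateral ventricle, 30.1 for the midbrain and 63.1 for the spinal cord, and was read in 137 third-ventricle cells (55.9%), but in neither of the 2 neuron-marker cells. Its third-ventricle blocks stood at 126, 119 and 193 CPM, against 118 CPM in the highest lateral ventricle block, so the gap was narrow. The others included Tspan7, Sh2d6, Nqo1, Tubb2a, Slc43a3, Bcan, Dab1, Sept3, Pcdh10, Epb41l2, Mfge8, Arhgef4, BC064078, Tagln3, Lyg2 and Ece2, with folds over the highest other region from 3.18 for Tspan7 down to 2.02 for Ece2.

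The count of 39 moved by less than 1.5 times when other cells were used, though the genes changed in part. It was 40 without the 2 neuron-marker cells, of which 38 were among the 39, with Tagln3 lost. With all 547 midbrain cells it was 38, of which 29 were, and the genes lost were Lhfp, Itih5, Nbl1, Itih3, Npy, Tspan7, Bcan, Mfge8, Tagln3 and Ece2, whose calls hold against the 305 midbrain cells only. Without block 1 the count was 44, of which 37 were among the 39, with Tagln3 and Ece2 lost. Without block 2 it was 39, of which 32 were, with Itih3, Rftn2, Fgf7, Sema3b, Arhgef4, Lyg2 and Epb41l2 lost. Without block 3 it was 54, of which 33 were, with Npy, Prodh, Maoa, Pcdh10, Sh2d6 and BC064078 lost.

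Fewer genes were lower than in every other region: 7 genes, or 0.143% of the 4887. These had at least 50 CPM in the lowest other region and reads in 25% of the cells of each, a level at least 2-fold below it in the third ventricle, and blocks that did not overlap. Wls (chromosome 3, 159839672 to 159938664), the carrier that Wnt ligands need for secretion, stood at 79.7 CPM for the third ventricle, 674 for the lateral ventricle, 777 for the midbrain and 607 for the spinal cord. Its third-ventricle blocks were 83.2, 79.2 and 77.6 CPM, against at least 494 CPM in every block elsewhere, and it was read in 49.8% of third-ventricle cells. The gene 1500015O10Rik, which encodes the secreted peptide augurin, stood at 125 CPM in third-ventricle cells, against 1564 CPM for the lateral ventricle, 789 for the midbrain and 2514 for the spinal cord, with third-ventricle blocks of 162, 79.3 and 137 CPM. Igfbp2, which binds insulin-like growth factors, stood at 41.2 CPM for the third ventricle, 393 for the lateral ventricle, 440.3 for the midbrain and 121 for the spinal cord. These 3 genes stood in the third ventricle at between 0.131 and 0.340 of the lowest other region.

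The other 4 had smaller differences or fewer reads. Folr1, a folate receptor, stood at 189 CPM in third-ventricle cells, against 385 CPM for the lateral ventricle, 506 for the midbrain and 467 for the spinal cord, and Ifitm3, an interferon-induced membrane protein, at 308 CPM for the third ventricle, 618 for the lateral ventricle, 633 for the midbrain and 2449 for the spinal cord, both just past 2-fold below the lowest other region. Folr1 no longer passed without block 2, and Ifitm3 did not pass without block 1, without block 2 or without the 2 neuron-marker cells. With all 547 midbrain cells Ifitm3 stood at 0.830 of the lowest other region. Frmd5, a cytoskeletal adaptor, stood at 23.1 CPM in third-ventricle cells, against 64.2 CPM for the lateral ventricle, 53.2 for the midbrain and 64.7 for the spinal cord, and with all midbrain cells at 0.581 of the lowest other region, short of 2-fold. The uncharacterised 1700012P22Rik stood at 31.0 CPM for the third ventricle, 88.2 for the lateral ventricle, 117 for the midbrain and 177 for the spinal cord, and within the third ventricle at 65.2 CPM in 61 cells with at least 10 CPM of Xist and under 10 CPM of Y-linked genes, against 1.93 CPM in 57 cells with the reverse.

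**Figure D3:**
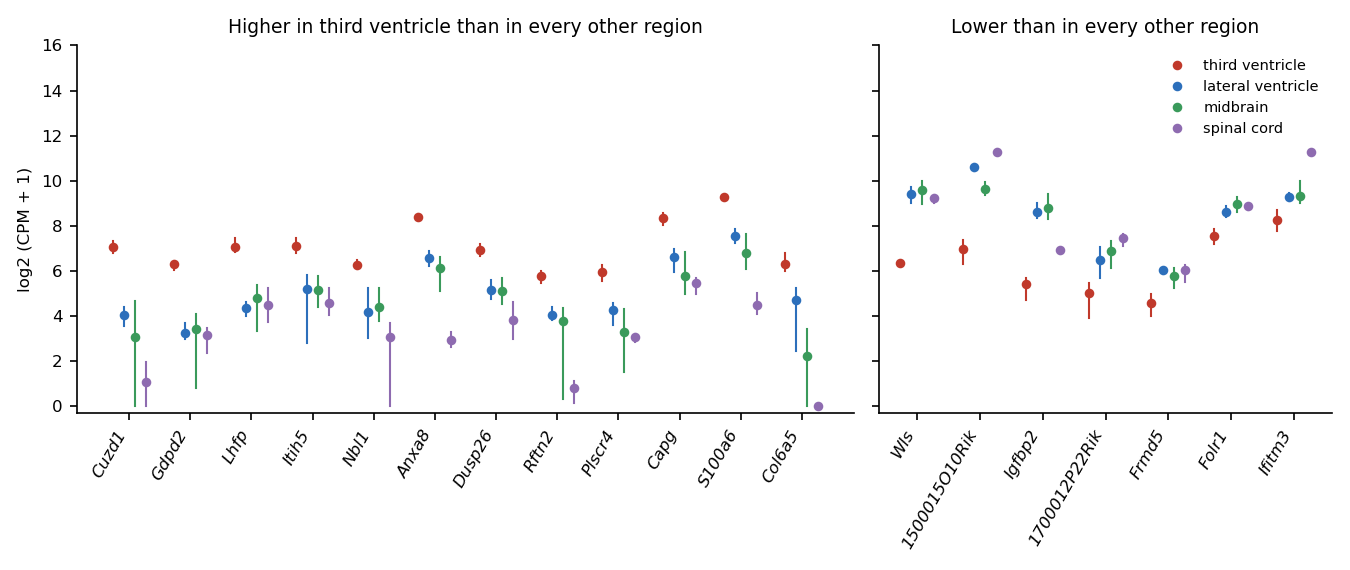
The 12 genes with the largest fold among those higher in the third ventricle than in every other region, and the 7 lower ones, as log2(CPM + 1) with block ranges as lines. Third-ventricle points and lines lie above all others in the first panel and below all others in the second, as the rule asked. Third-ventricle levels run from S100a6 at 615 CPM to Rftn2 at 52.8 CPM in the first panel. In the second they run from Ifitm3 at 308 to Frmd5 at 23.1 CPM.

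The lateral ventricle is the nearest forebrain comparison. By the same rule, 116 genes (2.68% of 4325) were higher in the third than in the lateral ventricle and 62 (1.43%) were lower. Without the 2 neuron-marker cells the counts were 109 and 62, and without block 3 they were 170 and 72. Beside genes already given, those with the largest folds were Lsamp and 3 transporters. Lsamp, an adhesion protein of limbic neurons, stood at 54.2 CPM in the third and 6.12 CPM in the lateral ventricle. Slc6a6, the taurine transporter, stood at 66.0 in the third and 9.88 CPM in the lateral ventricle, and Slc4a4, a sodium bicarbonate cotransporter, at 77.7 and 12.4 CPM. Slc14a1, a urea transporter, stood at 266 in the third and 45.6 CPM in the lateral ventricle. None of the 4 was at least 2-fold higher than in the spinal cord, which held 43.9, 36.9, 81.0 and 1058 CPM of Lsamp, Slc6a6, Slc4a4 and Slc14a1.

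In the other direction, Slco1c1, which carries thyroid hormone and organic anions at the blood-brain barrier, had 0 reads in all 245 third-ventricle cells and stood at 52.5 CPM in the lateral ventricle. At the floor of 3 reads this is at most 0.000281 of the lateral level. Midbrain cells had 12.5 and spinal cord cells 0.190 CPM. Cdh26, a cadherin, stood at 3.93 in the third and 238 CPM in the lateral ventricle, Tspan18, a tetraspanin, at 1.84 and 77.7 CPM, and Larp1b, an RNA-binding protein, at 3.83 and 52.7 CPM. Hspb1, a small heat shock protein, stood at 7.60 in the third and 84.9 CPM in the lateral ventricle, and Zic4, a zinc finger factor of dorsal and medial brain, at 15.5 and 173 CPM. Cdh26, Tspan18 and Larp1b were read in 3.67%, 1.63% and 4.90% of third-ventricle cells, and Hspb1 and Zic4 in 19.6% and 15.5%. Of the reads of Cdh26, 26.8% came from 1 cell, and of those of Tspan18, 66.2%.

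Otx2, a homeobox factor of forebrain and midbrain, marked a few cells within the sample. It was read in 7 of 245 third-ventricle cells. In 5 of them it stood at 59.0 to 336 CPM, and in the other 2 there was 1 read each. Those 2 cells held 647380 and 1800048 reads in all genes, against 295672 to 844464 in each of the 5. They therefore weigh heavily in the sums given next, and levels of the 5 alone are not given. Reads summed over these 7 cells gave 335 CPM of Wls, against 72.9 CPM in the other 238, and 74.8 CPM of Cdh26, against 2.02 CPM. Both genes are high in the lateral ventricle and the midbrain. The 7 cells had Cuzd1 at 233 CPM and Sparc at 3146 CPM, against 128 and 3296 CPM in the other 238, while Nbl1 stood at 0.375 against 77.1 CPM, Gdpd2 at 29.8 against 78.6 CPM and Six3 at 6.94 against 43.3 CPM. All 5 cells with more than 1 read of Otx2 lay outside the cluster that held 226 of the third-ventricle cells, among 19 cells that lay in clusters made mostly of cells of other regions. The clustering used these genes, so this placement is a description.

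Within the sample Cuzd1, Gdpd2 and Six3 were read in many cells, in varying combinations. Six3 was also read in 41.7% of lateral ventricle cells. Of 243 cells without the 2 neuron-marker cells, 124 had reads of Cuzd1, 110 of Gdpd2 and 113 of Six3. Cuzd1 and Gdpd2 were read together in 63 cells, and their Spearman correlation over the 243 cells was 0.06. Of the 5 genes Cuzd1, Gdpd2, Six3, Lhfp and Nbl1, chosen with their regional levels known, 3 were read in 65 third-ventricle cells, 4 in 45 and all 5 in 13. In the lateral ventricle 3 were read in 3 of 240 cells, in the midbrain in 6 of 305 and in the spinal cord in 0 of 114, and none of these cells of the other regions had 4 or 5. In 10 third-ventricle cells none was read, against 92 in the lateral ventricle. Cuzd1, Gdpd2, Lhfp and Nbl1 were picked from the genes higher in the third ventricle, so more of them read there follows from the choice. The midbrain cells left out were not counted here. Over all 547 midbrain cells Lhfp stood at 96.1 and Cuzd1 at 41.2 CPM, against 134 and 131 CPM in the third ventricle.

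Among factors that give position in the brain, dorsal ones were more often below than above the mean of the other regions. Of 15 dorsal, midbrain and roof plate factors that reached 10 CPM in some region, 0 were at least 2-fold higher and 8 at least 2-fold lower in the third ventricle, with a median log2 ratio of -1.03. The 8 were Otx1, Otx2, Zic1, Zic4, Pax3, Irx2, Emx1 and Dmrt3. A factor high in 1 other region raises that mean, and the third ventricle was the lowest region for only 2 of the 15. Pax3, for example, stood at 12.1 CPM in the midbrain, 0 in the lateral ventricle and 0.0106 CPM in the spinal cord. Emx1, a factor of the cortex, stood at 4.21 CPM in third-ventricle cells, against 31.2 CPM for the lateral ventricle, 2.84 for the midbrain and 5.63 for the spinal cord. Dmrt3, another cortical factor, had 0.00491 CPM in the third ventricle, 1 read, against 23.04 CPM in the lateral ventricle. Msx1, a factor of dorsal midline cells, was not among the lower genes. Its third-ventricle blocks stood at 223, 165 and 259 CPM. Tcf7l2, the effector of Wnt signalling in thalamus and gut, stood at 176 CPM for the third ventricle, 150.1 for the lateral ventricle, 137 for the midbrain and 66.5 for the spinal cord, highest in the third ventricle but within 2-fold.

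Of 25 hypothalamic and anterior factors, 9 were in the table and 4 reached 10 CPM. Six3, of the anterior neural plate, was at least 2-fold higher than the mean of the others, with 42.4 CPM in third-ventricle cells, against 34.0 CPM for the lateral ventricle, 0.444 for the midbrain and 0 for the spinal cord. Six3 was read in 114 third-ventricle cells (46.5%), with blocks of 39.5, 33.4 and 52.3 CPM. These overlap the blocks of the lateral ventricle, which ran from 24.4 to 39.8 CPM, so the ratio comes from the midbrain and the spinal cord. Under 10 CPM, Nkx2-1, which defines the ventral hypothalamus, stood at 6.47 CPM for the third ventricle, 8.83 for the lateral ventricle, 0.00807 for the midbrain and 0.0106 for the spinal cord and was thus read in both forebrain samples. Six6, kin of Six3 in hypothalamus and eye, had 4.93 CPM here and 0 reads in the 3 other regions. It was read in 11 cells, and stood at 4.19 CPM without the 2 neuron-marker cells. Among hedgehog and ventral genes, Gli2, a mediator of hedgehog signals, was higher with 23.4 CPM in third-ventricle cells, against 14.4 CPM for the lateral ventricle, 7.19 for the midbrain and 12.9 for the spinal cord, and Nkx6-1, of the ventral hindbrain and cord, was lower with 3.81 CPM against 0.00553 CPM for the lateral ventricle, 48.5 for the midbrain and 138 for the spinal cord.

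Of the 30 HOX genes listed, 19 were in the table and 8 of these had 0 reads in the third ventricle. All 16 that reached 10 CPM did so in the spinal cord alone, and the whole list summed to 0.211 CPM in the third ventricle, against 0.182 in the lateral ventricle, 0.367 in the midbrain and 825 in the spinal cord. Of the SOX and NFI factors, which the study is about, 12 reached 10 CPM and 11 lay within 2-fold of the mean of the other regions, close to the 91.4% of all genes. The exception was Sox8, a SOXE factor of glia, with 14.96 CPM for the third ventricle, 9.47 for the lateral ventricle, 4.52 for the midbrain and 8.09 for the spinal cord. Sox9 blocks in the third ventricle ran over 1347, 997 and 1514 CPM, and those of Nfia, which drives gliogenesis, over 220.0, 197 and 327 CPM.

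Glial genes were more often higher than lower in the third ventricle, with the midbrain taken as the 305 cells kept. Of 22 glial, water channel and gap junction genes that reached 10 CPM, 6 were at least 2-fold higher and 0 at least 2-fold lower than the mean of the others, against 4.13% and 4.43% over all genes. The median log2 ratio was 0.54, the third ventricle was the highest region for 14 of them, and the median was 0.55 without the 2 neuron-marker cells. The midbrain cells left out included 30 in an astrocyte-like cluster, whose leading genes held Gjb6 and Aldoc. Over all 547 midbrain cells Aldoc stood at 137 CPM, higher than in the 305, and S100a6 at 76.0 CPM, lower than in them. The list was counted against the 305 only, and the part of this choice in its counts was not tested. The 6 were S100a6, Aldoc and Nes, given above, and S100a1, Gjb6 and Slc1a3. S100a1, a calcium-binding protein, stood at 325 CPM in third-ventricle cells, against 188 CPM for the lateral ventricle, 136 for the midbrain and 85.3 for the spinal cord. Gjb6, the gap junction protein connexin 30, stood at 12.6 CPM for the third ventricle, 0.868 for the lateral ventricle, 3.33 for the midbrain and 0 for the spinal cord, from 18 third-ventricle cells. Slc1a3, the glutamate transporter GLAST, stood at 621 CPM in third-ventricle cells, against 287.6 CPM for the lateral ventricle, 129 for the midbrain and 448 for the spinal cord, with third-ventricle blocks of 776, 751 and 394 CPM.

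Others of the list were highest in the third ventricle without passing 2-fold. Aqp4, the water channel of glia facing fluid, stood at 584 CPM for the third ventricle, 445 for the lateral ventricle, 434 for the midbrain and 197 for the spinal cord. Gja1, connexin 43, stood at 1087 CPM in third-ventricle cells, against 851 CPM for the lateral ventricle, 735 for the midbrain and 774 for the spinal cord, and Gfap, the filament of astrocytes and of some tanycytes, at 136 CPM for the third ventricle, 89.9 for the lateral ventricle, 35.7 for the midbrain and 96.0 for the spinal cord. The blocks of Aqp4 ran over 521, 812 and 435 CPM, so that the lowest block was below the sum of the lateral ventricle. Kcnj10, a potassium channel, was highest in the midbrain, with 309 CPM in third-ventricle cells, against 268 CPM for the lateral ventricle, 403 for the midbrain and 369 for the spinal cord. Hopx, a factor of quiescent stem cells, was highest in the spinal cord, with 36.8 CPM for the third ventricle, 34.2 for the lateral ventricle, 78.2 for the midbrain and 84.7 for the spinal cord. Astrocyte markers summed to 1021 CPM in the third ventricle, against 1163 in the lateral ventricle, 892 in the midbrain and 531 in the spinal cord. The midbrain sum is that of the 305 cells, chosen without the astrocyte-like cluster. Slc7a10, a transporter of mature astrocytes, stood at 0.594 CPM in the third ventricle.

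Transporters of glucose and transmitters also lay mostly higher, again against the 305 midbrain cells kept. Among the higher genes, Slc6a11 was a leading gene of the astrocyte-like midbrain cluster left out. Of 12 genes for glucose, lactate and transport that reached 10 CPM, 4 were at least 2-fold higher, 0 lower, and the median log2 ratio was 0.61. Slc2a1, the glucose transporter GLUT1, lay within 2-fold with 3612 CPM in third-ventricle cells, against 2847 CPM for the lateral ventricle, 3311 for the midbrain and 1922 for the spinal cord. The higher genes included Slc1a3, given above, and the GABA transporter Slc6a11 at 25.7 CPM for the third ventricle, 8.47 for the lateral ventricle, 11.5 for the midbrain and 9.25 for the spinal cord. Slc2a3, the neuronal glucose transporter, was another, at 17.5 CPM in third-ventricle cells, against 9.52 CPM for the lateral ventricle, 3.78 for the midbrain and 9.65 for the spinal cord. Slc38a3, a glutamine transporter, stood at 881 CPM for the third ventricle, 609 for the lateral ventricle, 735 for the midbrain and 167 for the spinal cord. Of 20 glycolysis genes that reached 10 CPM, 18 lay within 2-fold, close to the 91.4% of all genes, and the exceptions were Aldoc and Pfkfb3, which sets the pace of glycolysis, at 24.5 CPM in third-ventricle cells, against 9.19 CPM for the lateral ventricle, 1.75 for the midbrain and 0.137 for the spinal cord. All 29 nuclear genes of the respiratory chain that reached 10 CPM lay within 2-fold (median log2 -0.09).

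**Figure D4:**
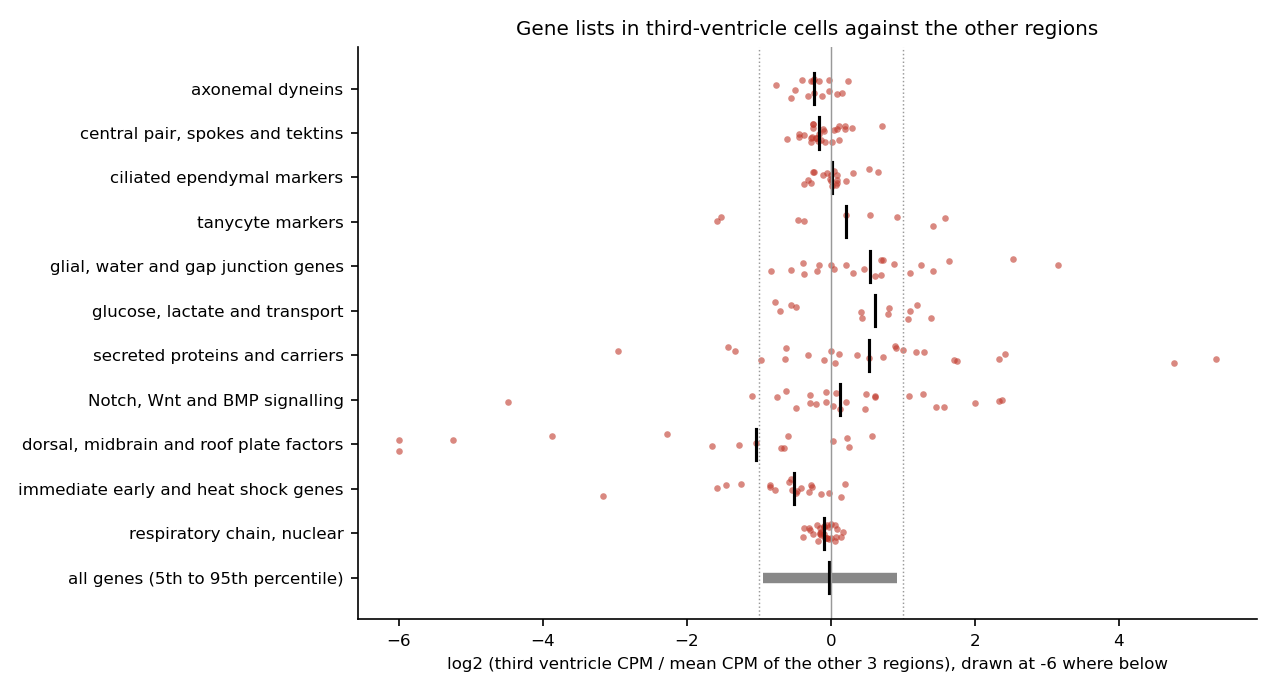
log2 ratio of third-ventricle CPM over the mean of the other regions for members of 11 gene lists that reached 10 CPM, 1 point per gene and a bar at each median, with the middle 90% of all genes as a bar. The midbrain part of that mean is the 305 cells kept. Cilium and respiratory chain genes lie close to 0, glial and glucose transport genes mostly above it, and dorsal factors and immediate early genes mostly below (values under -6 are drawn at -6).

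Secreted proteins went both ways. Of 25 that reached 10 CPM, 8 were at least 2-fold higher and 3 lower, with a median log2 ratio of 0.53, or 0.38 without the 2 neuron-marker cells. Of the 8, the granule proteins Chgb and Scg2 came mostly from those 2 cells: Chgb stood at 13.1 CPM and at 3.75 CPM without them, and Scg2 at 88.0 and 0.0594 CPM. Dkk3, a glycoprotein of the Dickkopf family, stood at 472 CPM for the third ventricle, 254 for the lateral ventricle, 213 for the midbrain and 109.8 for the spinal cord. Bmp7, a bone morphogenetic protein, stood at 10.8 CPM in third-ventricle cells, against 2.71 CPM for the lateral ventricle, 1.40 for the midbrain and 1.97 for the spinal cord, and Igfbp4 at 22.1 CPM for the third ventricle, 3.83 for the lateral ventricle, 10.8 for the midbrain and 14.4 for the spinal cord. Igfbp7 stood at 11.2 CPM in third-ventricle cells, against 5.998 CPM for the lateral ventricle, 1.54 for the midbrain and 2.47 for the spinal cord. Sparc and Nbl1 make up the 8. Cpe, which trims peptide hormones, stood at 1103 CPM for the third ventricle, 2779 for the lateral ventricle, 2255 for the midbrain and 89.8 for the spinal cord, with single third-ventricle cells from a lower quartile of 489 to an upper quartile of 1439 CPM. Clu stood at 7344 CPM in third-ventricle cells, against 12764 CPM for the lateral ventricle, 10413 for the midbrain and 10601 for the spinal cord. Of the brain regions, the third ventricle was lowest for both.

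In the Notch, Wnt and BMP pathways, 7 of 25 genes that reached 10 CPM were at least 2-fold higher and 2 lower, against 4.13% and 4.43% of all genes, with a median log2 ratio of 0.12. Wnt7b, a Wnt ligand of vessels and glia, stood at 26.5 CPM for the third ventricle, 5.25 for the lateral ventricle, 7.16 for the midbrain and 2.85 for the spinal cord, with third-ventricle blocks of 35.9, 26.9 and 19.1 CPM. Fzd1, a Wnt receptor, stood at 22.7 CPM in third-ventricle cells, against 1.88 CPM for the lateral ventricle, 6.92 for the midbrain and 14.1 for the spinal cord with blocks of 28.3, 23.4 and 18.04 CPM, and Lgr6, a receptor for R-spondins, at 11.9 CPM for the third ventricle, 3.96 for the lateral ventricle, 2.47 for the midbrain and 2.47 for the spinal cord. So a ligand and receptors were higher, while the Wnt carrier Wls was lower and Axin2, a target of Wnt signals, stood at 20.9 CPM in third-ventricle cells, against 39.0 CPM for the lateral ventricle, 31.8 for the midbrain and 34.5 for the spinal cord. Id1, a target of BMP signals, stood at 44.1 CPM for the third ventricle, 33.1 for the lateral ventricle, 12.6 for the midbrain and 2.29 for the spinal cord. Id3, another, stood at 74.7 CPM in third-ventricle cells, against 66.8 CPM for the lateral ventricle, 17.7 for the midbrain and 7.29 for the spinal cord. For both the lateral ventricle was close to the third, and the midbrain and spinal cord were lower. Hey2, a target of Notch, stood at 29.0 CPM for the third ventricle, 22.1 for the lateral ventricle, 10.7 for the midbrain and 8.28 for the spinal cord. The 2 lower genes, Dll1 and Lgr5, were high in the spinal cord, at 53.9 and 28.9 CPM, against 10.9 and 0.446 CPM in the third ventricle.

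Genes of hormone sensing went both ways. Of 14 receptor and thyroid hormone genes that reached 10 CPM, 2 were at least 2-fold higher and 3 lower. Tshr, the thyrotropin receptor, stood at 12.8 CPM in third-ventricle cells, against 11.4 CPM for the lateral ventricle, 3.43 for the midbrain and 4.17 for the spinal cord, with third-ventricle blocks of 13.1, 23.6 and 3.17 CPM. Thra, a thyroid hormone receptor, stood at 87.3 CPM for the third ventricle, 70.5 for the lateral ventricle, 88.3 for the midbrain and 84.9 for the spinal cord, and Esr1, an oestrogen receptor, at 14.7 CPM in third-ventricle cells, against 15.04 CPM for the lateral ventricle, 41.5 for the midbrain and 30.1 for the spinal cord. In retinoid handling, Rdh10, which makes retinal, was higher with 245 CPM for the third ventricle, 144.4 for the lateral ventricle, 107 for the midbrain and 80.8 for the spinal cord and third-ventricle blocks of 256, 229.8 and 250.3 CPM.

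Stress genes lay above the lateral ventricle and below the mean of the other regions. Of 20 immediate early and heat shock genes that reached 10 CPM, 0 were at least 2-fold higher and 4 lower, with a median log2 ratio of -0.51 against the mean of the others but 0.72 against the lateral ventricle. These genes are known to respond to dissociation. Fos, the best known of them, stood at 1498 CPM in third-ventricle cells, against 788 CPM for the lateral ventricle, 2299.6 for the midbrain and 3485 for the spinal cord, and within the third ventricle at 2166, 912 and 1507 CPM in the 3 blocks. Of 15 interferon and MHC genes, Ifit1 and Ifit3 were higher and Ifitm1 and Ifitm3 lower. Ifit3 stood at 27.6 CPM for the third ventricle, 17.2 for the lateral ventricle, 16.2 for the midbrain and 1.43 for the spinal cord, and its third-ventricle blocks at 14.4, 21.0 and 43.0 CPM.

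Markers of other cell types were read rarely, with a few exceptions. Microglia markers summed to 3.30 CPM in the third ventricle, against 8.61 in the lateral ventricle, 80.1 in the midbrain and 0.676 in the spinal cord. Oligodendrocyte precursor markers summed to 5.07 CPM, with none at 10 CPM in any region. Of the oligodendrocyte list, Cnp, an enzyme of myelin, stood at 1095 CPM in third-ventricle cells, against 622 CPM for the lateral ventricle, 711 for the midbrain and 395 for the spinal cord, with a read in 99.2% of third-ventricle cells. The myelin protein Mbp stood at 42.0 CPM for the third ventricle, 65.8 for the lateral ventricle, 66.3 for the midbrain and 115 for the spinal cord. Mural markers came from Acta2 and Tagln, which are actin and an actin-binding protein of smooth muscle. Acta2 stood at 441 CPM in third-ventricle cells, against 728 CPM for the lateral ventricle, 209 for the midbrain and 71.7 for the spinal cord. Of the choroid plexus list, Ttr, the carrier of thyroid hormone in the fluid, stood at 5.15 CPM for the third ventricle, 9.61 for the lateral ventricle, 19.9 for the midbrain and 9.15 for the spinal cord. Sspo, the marker of the subcommissural organ, by which midbrain cells had been left out, stood at 4.81 CPM in the third ventricle. The part of these markers in other results was not tested.

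Neuron markers were concentrated in 2 cells. One, in block 1, held 4320 CPM of summed neuron markers, 405 CPM of ependymal markers and 1175 CPM of cilium genes. The other, in block 2, held 4570, 456 and 440 CPM. They had 7524 and 6644 genes. The ependymal marker sums of the other 243 cells ran from 9663 CPM up, with a median of 25901 CPM, and their neuron marker sums reached at most 290 CPM and were 0 in 196 cells. So there was no overlap in either measure. Both held Scg2 at 10134 and 8595 CPM, Snap25, of synaptic vesicle fusion, at 1247 and 1686 CPM, and Gad1, which makes GABA, at 788 and 1621 CPM. Foxj1 had 1 read in the first and 0 in the second. The second alone had reads of Avp, the vasopressin precursor, at 2275 CPM, of Six3 at 282 CPM and of Six6 at 136 CPM. It also held Prok2, a secreted signal of the circadian clock centre, at 649 CPM and Rgs16, a regulator of G proteins, at 5213 CPM, against 37.2 and 139 CPM in the first. The first alone had reads of Cartpt, the precursor of a feeding peptide, at 525 CPM and of Prlr, the prolactin receptor, at 604 CPM, and it held Penk at 1797 CPM, against 243 CPM in the second.

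These 2 cells carried much of the sample's neuronal signal. The neuron marker list summed to 54.0 CPM in the third ventricle and to 11.4 CPM without them, against 5.74 in the lateral ventricle, 10.3 in the midbrain and 253 in the spinal cord. Stmn2, a neuronal tubulin regulator, had 13.2 CPM in third-ventricle and 236 CPM in spinal cord cells. Avp stood at 13.1 CPM with them and 0.0495 CPM without. Npy kept its level, with 149 CPM with them and 151 without. Their sorting, reporter level and position in the tissue are not given for single wells, and what they are was not tested.

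Most genes varied between third-ventricle cells as much as other genes of their level did. Spread was measured as the squared coefficient of variation (CV, the SD over the mean) of CPM over cells, relative to the running median of genes of like CPM. Of 4039 genes of at least 50 CPM read in 20% of cells, the median CV was 1.203 (quartiles 0.909 and 1.48), and 92 genes (2.28%) had at least 2 times the trend. Without the 2 neuron-marker cells 66 of 4019 did, of which 63 were among the 92. In the lateral ventricle 69 of 3899 genes did. The lists shared 32 genes, which is 34.8% of the third-ventricle list and 46.4% of the lateral ventricle list. Only 73 of the 92 met the minimums in the lateral ventricle, so the rest could not be shared. Cells of 1 sample share their source, so this is spread within the sample and not replicate error.

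Immediate early genes varied far above the trend and cilium genes lay close to it. Of 12 immediate early and heat shock genes that could be measured, 11 were among the 92, with a median of 4.79 times the trend, and of 40 cilium genes none was, with a median of 1.10 times the trend and a median CV of 0.829. Fos had the largest value, at 16.4 times the trend. It was read in 187 cells, with a median of 4.92 CPM, a 95th percentile of 7828 CPM and a highest cell of 11901 CPM. Egr1, another immediate early factor, had 11.1 times the trend and 4849 CPM in its highest cell, and Dusp1, a phosphatase that damps this response, 8.38 times. Over the 243 cells the Spearman correlation of Fos was 0.73 with Egr1, 0.69 with Junb, 0.62 with Jun, 0.60 with Dusp1 and 0.34 with Atf3. With reads per cell it was 0.05 for Fos and between 0.07 and 0.13 for the other 5 genes.

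Contractile genes were also uneven. Acta2 had 10.4 times the trend, a median of 35.2 CPM over cells and a highest cell of 6693 CPM, and Ccn1, a matrix protein induced by stretch and serum, 11.5 times with 7672 CPM in its highest cell. Tagln had 6.47 times the trend and was read in 62 cells. Acta2 had a Spearman correlation of 0.21 with Tagln, 0.32 with Myl9, a light chain of smooth muscle myosin, and -0.01 with Fos. In the lateral ventricle Acta2 had 10.4 times the trend and Fos 34.1 times.

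The other genes among the 12 farthest above the trend were of several kinds. Gfap had 5.39 times the trend: it was read in 132 cells, and 12.2% of its reads came from 1 cell at 4571 CPM. Snhg11 and Map1b, a neuronal RNA and a microtubule protein of axons, and Nap1l5, an imprinted gene, stood there with the 2 neuron-marker cells and not without them. Map1b had 5.40 times the trend with them and 1.21 without, and Nap1l5 5.77 and 1.43. Snhg11 no longer met the minimums without them. Gadd45g, a stress response gene, had 6.51 times the trend, with third-ventricle blocks of 87.6, 56.7 and 155 CPM.

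Some variable genes differed between blocks or between cells with Xist and with Y-linked genes at 10 CPM or more. Malat1, a nuclear RNA, had 3.12 times the trend and blocks of 3524, 4723 and 8001 CPM, so it was highest in block 3, which had the fewest genes per cell. Htr5b, a serotonin receptor, had 5.05 times the trend. It was read in 95 cells and stood at 63.3 CPM in the 61 cells with at least 10 CPM of Xist and under 10 CPM of Y-linked genes, against 359 CPM in the 57 with the reverse. Between those 61 and 57 cells, 60 of 4052 genes (1.48%) differed at least 2-fold. In 2 cells both reached 10 CPM, and in 125 cells neither did. Each well was sorted for 1 cell and doublets were not called. Whether the 2 wells with both held more than 1 cell was not tested.

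The genes closest to even were of another kind. Of the 30 with the lowest spread relative to the trend, 21 were predicted genes or pseudogenes, which can share reads with abundant parent genes. Gm6368 had the lowest, at 0.0536 times the trend. Among marker genes of like abundance, Ccdc153 and Rsph1 were even, with CVs of 0.367 and 0.362, and Tmem212 had 0.440. Over 243 cells Ccdc153 and Tmem212 had a Spearman correlation of 0.43, while Foxj1 and Tmem212 had -0.35. Depth and block also differ between these cells, and their part in the correlations was not tested.

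**Figure D5:**
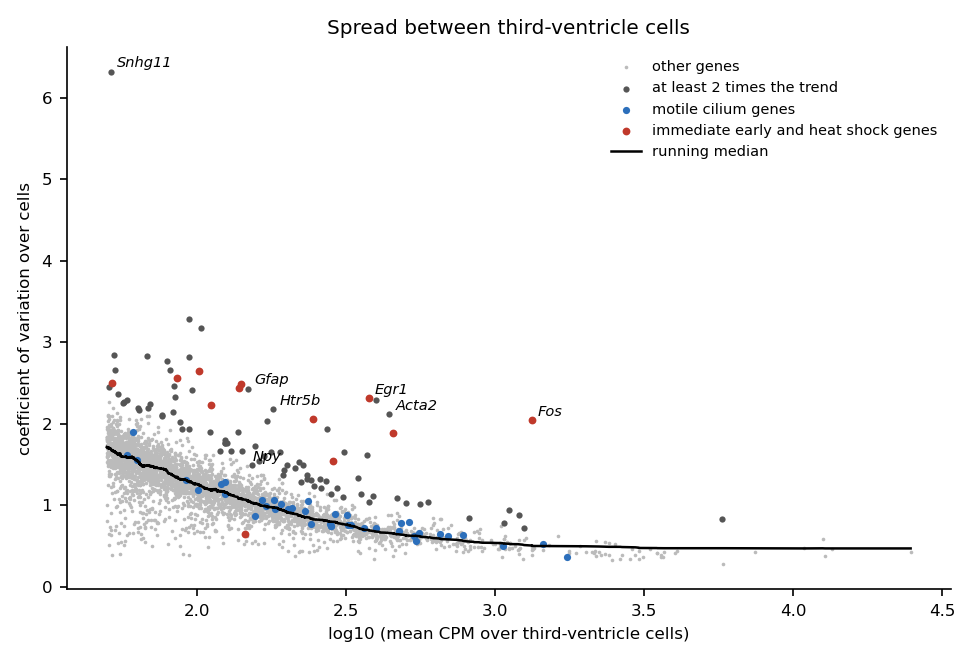
Coefficient of variation of CPM over the 245 third-ventricle cells against log10 of mean CPM, 1 point per gene, with cilium genes in blue, immediate early and heat shock genes in red and genes past 2 times the trend in dark grey. Cilium genes lie along the line of the running median, at a median CV of 0.829, while Fos and Egr1 stand far above genes of their level and Snhg11 stands highest of all.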

How the data were processed

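The authors deposited raw read counts of every gene in every cell as whole numbers, and a second table of log2 values. On testing, the deposited log2 values equalled log2 of the count over a size factor per cell, plus 1. They served only as an alternative scaling. Per the labels' protocols, cells were sorted into 96-well plates and libraries made by Smart-seq2, which carries no molecular identifiers. STAR 2.3.1o, Seurat 3 and mm10 are named in the submitters' processing notes, with no role. The counter, the annotation and the size-factor method are not given in the sources used here.

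The prefix of each column named its sample, with 0 columns left over. Tanycytes and Forebrain were taken as the third and lateral ventricle by anatomy. Counts were summed per region and scaled to CPM, with exact Poisson 95% intervals. Reads are not independent molecules, so intervals and floors (3 reads) cover counting error only. With 1 sample per region no test was run. Blocks of 96 cell numbers with at least 10 cells describe spread within a sample. Depth per cell is given with the results.

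Midbrain cells were chosen by clustering in scanpy 1.11.5 (2000 variable genes, 30 components, 15 neighbours, resolution 1). Of 16347 gene names, 16027 matched GENCODE M21 on GRCm38, from which coordinates and exon lengths came. Scripts ran in Python 3.11.15 with numpy 2.4.6 and pandas 2.3.3 and were tested on simulated data. The members and gene lists were chosen with earlier results of these data known. Genes named are the 12 with the largest folds higher and all lower against every region, 8 in each direction against the lateral ventricle, the 15 highest per kb, 12 and 8 with the highest and lowest spread, and list members. The others named among the 39 higher genes, and Myl9, Malat1, Htr5b, Prok2 and Rgs16, were chosen after their values were seen. Some members of these lists are counted but not reported here by name. Alternatives changed the scaling, minimums, fold, blocks, cells left out, midbrain cells, sequencing project and thinning depth.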

Additional observations from a re-analysis of the deposited data

How the results depend on the processing

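Minimums and folds set the counts. With no minimum except 10 reads, 125 genes were higher and 20 lower in the third ventricle than in every other region, and 697 higher and 459 lower than in the lateral ventricle, against 39, 7, 116 and 62 with the minimums used. At a fold of 3 the counts were 15, 2, 35 and 30. At a minimum of 20 CPM, 11 genes were lower than in every other region, and 196 were higher and 108 lower than in the lateral ventricle. Tanycyte markers at least 2-fold higher numbered 2, but 5 at a minimum of 1 CPM, 1 against the lateral ventricle alone and 4 without block 3. Genes past the spread trend numbered 92, or 34 at 3 times the trend. Under all other alternatives run, these counts stayed within 1.5 times of those reported, and cells with a larger share of tanycyte than of cilium genes stayed at 0. Of 353 values of the folds of 35 named genes under the alternatives, 147 lay within the counting interval of the reported fold, 206 beyond it, and 0 changed direction. Leaving out the 2 neuron-marker cells, and leaving out blocks for the marker lists, were chosen after seeing the data.

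No paired analysis was possible because each region was 1 sample and no label ties a well to an animal. Regional differences hold for these samples, and a region cannot be told apart from its sample. Depth did not limit the sums, since 1 read among 203810153 is far below 1 CPM, but a gene at a few CPM was read in few cells, so its level rests on those. How reads of near-identical copies and pseudogenes were counted, and whether counting used strand, is not given. What the blocks of cell numbers stand for is not given, and the tie of the column prefix to the third ventricle rests on anatomy.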

Other observations

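Adhesion and sex-linked genes were not described above. Of 20 junction and adhesion genes that reached 10 CPM, 18 lay within 2-fold of the mean of the other regions, close to the 91.4% of all genes, with a median log2 ratio of -0.05. Cdh11, a cadherin of mesenchyme and brain, was the higher one, with 17.7 CPM for the third ventricle, 2.19 for the lateral ventricle, 5.59 for the midbrain and 3.13 for the spinal cord, and was read in 55 third-ventricle cells. Cldn10, a claudin that forms ion pores between epithelial cells, was the lower one, with 1.29 CPM in third-ventricle cells, against 2.29 CPM for the lateral ventricle, 1.80 for the midbrain and 18.4 for the spinal cord. Cdh2, the neural cadherin that joins ependymal cells, stood at 52.0 CPM for the third ventricle, 48.4 for the lateral ventricle, 48.1 for the midbrain and 131 for the spinal cord, and its third-ventricle blocks at 61.6, 68.5 and 30.8 CPM.

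The animals were of both sexes, and the share of cells from each is not given. Xist, the RNA of the inactive X chromosome, stood at 38.3 CPM in third-ventricle cells, against 35.6 CPM for the lateral ventricle, 38.3 for the midbrain and 3.74 for the spinal cord. Of the Y-linked genes, Ddx3y, an RNA helicase, stood at 16.7 CPM for the third ventricle, 14.9 for the lateral ventricle, 31.2 for the midbrain and 62.8 for the spinal cord, and Eif2s3y, a translation factor, at 17.0 CPM in third-ventricle cells, against 17.8 CPM for the lateral ventricle, 29.97 for the midbrain and 79.9 for the spinal cord. Within the third ventricle 61 cells had at least 10 CPM of Xist and under 10 CPM of Y-linked genes, and 57 the reverse. Of the genes set apart by region, 1700012P22Rik differed between the kinds as well, at the values given with the regional result, and the part of the mix of animals in that result was not tested.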
